A study of Mus musculus with 2 samples.

Results

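The BCL2 family decides at the mitochondrion whether a cell lives or dies, and its transcripts were described in granulocyte-monocyte progenitors (GMPs), the bone marrow progenitors of neutrophils and monocytes. The 10 genes described were taken by symbol and not by a threshold on their levels, although earlier results of these data were known, and all 10 were found among the 24421 symbols of the expression files. They comprised 4 survival genes (Bcl2, Bcl2l1, Mcl1 and Bcl2a1b), 2 effectors (Bax and Bak1) and 4 BH3-only genes (Bcl2l11, Bbc3, Pmaip1 and Bid). NTB-GMP was a library of GMPs from female non-tumor-bearing mice. 4T1-GMP was a library of GMPs from female mice carrying orthotopic 4T1 tumors, which grow from a mouse mammary carcinoma cell line placed in the mammary gland. By the labels, both groups had the F1 semi-syngeneic (H-2b/d) background, whereas the methods of the study name BALB/c females as 4T1 hosts and give no such F1 cross. The cells of both groups came from bone marrow by flow cytometry. For cultured GMPs, the methods gate lineage-depleted marrow on CD16/32 and CD150 besides c-Kit and Sca-1. By the methods the mice were young adults, and the labels do not say how many were pooled. The comparison asked how the progenitors of tumor-bearing mice differed from those of control mice. With 1 library in each group, no replicate error and no test could be had, and every interval given covers counting error alone.

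Survival members of the family (BCL2, BCL-XL from Bcl2l1, MCL1 and A1 from the Bcl2a1 genes) hold the effectors in check. When they are released, BAX and BAK open pores in the outer mitochondrial membrane and cytochrome c escapes to activate caspases. The BH3-only proteins BIM (Bcl2l11), PUMA (Bbc3), NOXA (Pmaip1) and BID sense stress or death receptor signals, and they bind the survival members or the effectors. MCL1 is known as a short-lived protein on which neutrophils and their progenitors depend, whereas BCL2 is known to be more abundant in stem and early progenitor cells than in mature neutrophils.

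Sequences bear on how 1 member could be measured. Mice carry several near-identical Bcl2a1 genes, and the reads of Bcl2a1b could be confused with those of its copies. The coding sequences of Bcl2a1a, Bcl2a1b and Bcl2a1d in the GENCODE annotation were each 516 bases long, and all 3 had the same base at all but 12 positions. Bcl2a1b was 97.9% identical to Bcl2a1a and 98.8% identical to Bcl2a1d, and the longest run shared by all copies was 217 bases. The first 90 coding bases held 6 of the 12 differing positions, which are in capitals, and are shown because they are where a short read could tell the copies apart.
Bcl2a1a: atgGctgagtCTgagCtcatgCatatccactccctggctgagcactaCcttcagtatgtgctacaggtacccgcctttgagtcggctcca
Bcl2a1b: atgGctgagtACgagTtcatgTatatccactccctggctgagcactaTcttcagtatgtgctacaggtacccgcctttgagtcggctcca
Bcl2a1d: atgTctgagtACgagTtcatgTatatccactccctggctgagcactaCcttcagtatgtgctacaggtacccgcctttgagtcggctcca
Bcl2a1b and Bcl2a1d differed within this stretch at the first and the last of the 6 capitals.

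Promoters are shown for Bcl2 and Mcl1, the survival genes with the most transcript in NTB-GMP, whose levels parted in 4T1-GMP. The windows are the 250 bases before the RefSeq start on mm10, read 5′ to 3′ in the direction of the gene, at chr1:106714291-106714540 (minus strand) for Bcl2 and at chr3:95658471-95658720 (plus strand) for Mcl1. Capitals mark the GC box CCGCCC and the ETS motif CCGGAAG, searched on both strands, so that a GC box on the other strand reads GGGCGG.
Bcl2: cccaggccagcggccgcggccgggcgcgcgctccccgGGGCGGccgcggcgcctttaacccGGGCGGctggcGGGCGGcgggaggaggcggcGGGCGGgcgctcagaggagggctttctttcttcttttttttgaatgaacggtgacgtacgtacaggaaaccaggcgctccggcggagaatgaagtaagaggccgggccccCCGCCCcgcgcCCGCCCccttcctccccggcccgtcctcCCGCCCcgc
Mcl1: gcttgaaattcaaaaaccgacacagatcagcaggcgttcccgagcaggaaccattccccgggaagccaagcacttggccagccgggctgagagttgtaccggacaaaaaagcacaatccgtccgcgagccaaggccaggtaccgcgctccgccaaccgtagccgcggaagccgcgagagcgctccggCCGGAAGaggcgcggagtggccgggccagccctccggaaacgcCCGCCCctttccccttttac
The Bcl2 window held 7 GC boxes and 36 CG dinucleotides, more CG than 97.4% of the 32851 windows in the table. The Mcl1 window held 1 GC box, 1 ETS motif and 26 CG dinucleotides, against a median of 6 over all windows. Windows of 9 members were in the table, 14 in all since some genes have several starts. Of these 14 windows, 10 held a GC box, from 7 members, whereas 32.7% of all windows held one. The ETS motif was in windows of Bcl2l11 and Mcl1 (6.91% of all windows), and the E-box CACGTG was in windows of Bax and Bbc3 (6.02%). None of the 14 windows held the STAT motif TTCNNNGAA (7.02% of all), the CRE motif TGACGTCA (1.55%) or the C/EBP motif TTGCGCAA (0.164%). These matches are a description of the letters and not of binding.

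Levels are given in RPKM, reads scaled to gene length and library size, which allows genes to be compared with each other. The deposited values had been divided by library sizes of 10180365 reads for NTB-GMP and 30016263 for 4T1-GMP, and totals of 9948290 and 27801545 whole reads could be read back from them, so low levels were measured more closely in 4T1-GMP. Differences are log2 ratios, log2((RPKM + 0.1) in 4T1-GMP / (RPKM + 0.1) in NTB-GMP), and a gene is called higher or lower where it differed by at least 1.5-fold. The background was the 10378 genes that averaged 1 RPKM or more over both libraries, whose median log2 ratio was 0.05 and the middle 50% lay between -0.26 and 0.32. The ribosomal precursor Rn45s took 17.0% of the NTB-GMP size and 6.98% of the 4T1-GMP size, and leaving it out lowered every log2 ratio by about 0.16 (a shift of -0.16).

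Of the 10 members, 2 were higher in 4T1-GMP (Bak1 and Pmaip1), 3 were lower (Bcl2, Bcl2a1b and Bbc3) and 5 stayed within 1.5-fold. Among all genes tested, 9.8% were higher and 11.6% were lower by that fold, or 5.73% and 17.0% with Rn45s left out of the sizes. Quantile normalization gave 3 members higher and 2 lower, with Bcl2l1 (0.60) passing the fold and Bcl2a1b (-0.45) no longer past it. Both libraries averaged, 9 members reached 1 RPKM and Bbc3 did not. Of those 9, 2 were higher and 2 were lower, and their median log2 ratio was 0.44. Under the deposited scaling, counting intervals of the RPKM ratio lay above 1 for 5 members (Bcl2l1, Bax, Bak1, Pmaip1 and Bid). They lay below 1 for 3 (Bcl2, Bcl2l11 and Bbc3), and those of Mcl1 and Bcl2a1b held 1. No share of all tested genes with such intervals is given here. The lower log2 bound of Bcl2l1 (0.157) and the upper log2 bound of Mcl1 (0.144) were smaller than the Rn45s shift (-0.164). With that shift, the Bcl2l1 interval would hold a ratio of 1 and the Mcl1 interval would lie below 1.

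**Figure D1:**
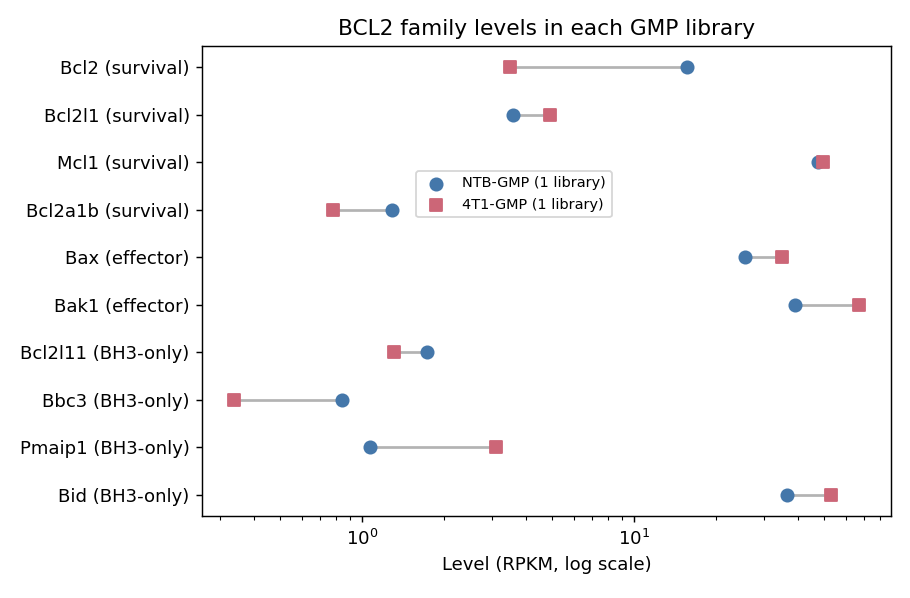
Level of each of the 10 members in RPKM on a log axis, with a circle for the NTB-GMP library and a square for the 4T1-GMP library. Mcl1, Bak1, Bid and Bax lay above 25 RPKM in both libraries, and Bcl2 moved from 15.7 to 3.49 RPKM.

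The members fell into abundant and scarce genes. In NTB-GMP the order by RPKM was Mcl1, Bak1, Bid, Bax, Bcl2, Bcl2l1, Bcl2l11, Bcl2a1b, Pmaip1 and Bbc3. Bak1 and Bid, and each neighbouring pair from Bcl2l11 down to Bbc3, did not differ beyond counting error there. In 4T1-GMP the order was Bak1, Bid, Mcl1, Bax, Bcl2l1, Bcl2, Pmaip1, Bcl2l11, Bcl2a1b and Bbc3, and of the neighbours only Bcl2 and Pmaip1 did not differ beyond counting error. Mcl1 thus passed from the first place to the third, and Bcl2 from the fifth to the sixth, behind Bcl2l1. The wide gap in NTB-GMP stood between Bcl2 and Bcl2l1, a ratio of 4.36 (95% interval 3.60 to 5.31). In 4T1-GMP the wide gap stood above both, between Bax and Bcl2l1, a ratio of 7.11 (6.36 to 7.96).

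Bcl2 (chr1:106538178-106714274, minus strand), the founding survival gene of the family, had the largest difference of the 10 members. Its level was 15.7 RPKM in NTB-GMP, from 1235 reads, against 3.49 RPKM in 4T1-GMP, from 811 reads in the deeper library. The NTB-GMP level was 4.49 times the 4T1-GMP level. The log2 ratio was -2.14 (95% counting interval of the log2 RPKM ratio -2.30 to -2.04), and 0.992% of the genes tested had a lower one. Bcl2 thus moved from above 58.9% of the tested genes in level to above 17.5% of them. An antisense gene overlaps exons of Bcl2, and how strands were counted is not given in the sources used here.

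Mcl1 (chr3:95658788-95663176, plus strand) encodes the short-lived survival protein MCL1. It was the most abundant survival gene in both libraries, with 47.2 RPKM in NTB-GMP from 1676 reads against 49.3 RPKM in 4T1-GMP from 5163 reads. The log2 ratio of 0.06 (-0.02 to 0.14) was close to the median of all genes, and it became -0.10 without Rn45s and -0.13 after quantile normalization, so no direction can be given. The RPKM ratio lay between 0.989 and 1.10. Because Bcl2 was lower and Mcl1 was close to level, the ratio of Mcl1 to Bcl2 within a library went from 3.01 to 14.1.

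Bcl2l1 (chr2:152780668-152831728, minus strand) encodes BCL-XL, which guards among others the late erythroid and megakaryocyte lineages. Its level was 3.60 RPKM in NTB-GMP (117 reads) against 4.92 RPKM in 4T1-GMP (472 reads). The log2 ratio was 0.44 (0.16 to 0.76). Under the deposited scaling this difference was beyond counting error but within 1.5-fold, and with the Rn45s shift the interval would hold 0. Relative to Bcl2, Bcl2l1 stood at 0.229 in NTB-GMP and at 1.41 in 4T1-GMP.

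Bcl2a1b (chr9:89199209-89207827, plus strand) is one of the genes for A1, a survival protein that NF-kB signaling can induce in myeloid cells. It had 10 reads in NTB-GMP and 18 in 4T1-GMP, or 1.29 and 0.785 RPKM. Its log2 ratio of -0.65 passed the fold, but the interval from -1.90 to 0.57 held 0, so the difference was not detectable at this depth. Bcl2a1a, named here after its values were seen, had 1 read in NTB-GMP and 17 in 4T1-GMP. With the copies Bcl2a1a, Bcl2a1b, Bcl2a1c and Bcl2a1d summed, the level was 2.15 RPKM from 17 reads in NTB-GMP and 2.17 RPKM from 51 reads in 4T1-GMP. How reads that match several copies were assigned is not given in the sources used here, and the lower value of Bcl2a1b was therefore uncertain.

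**Figure D2:**
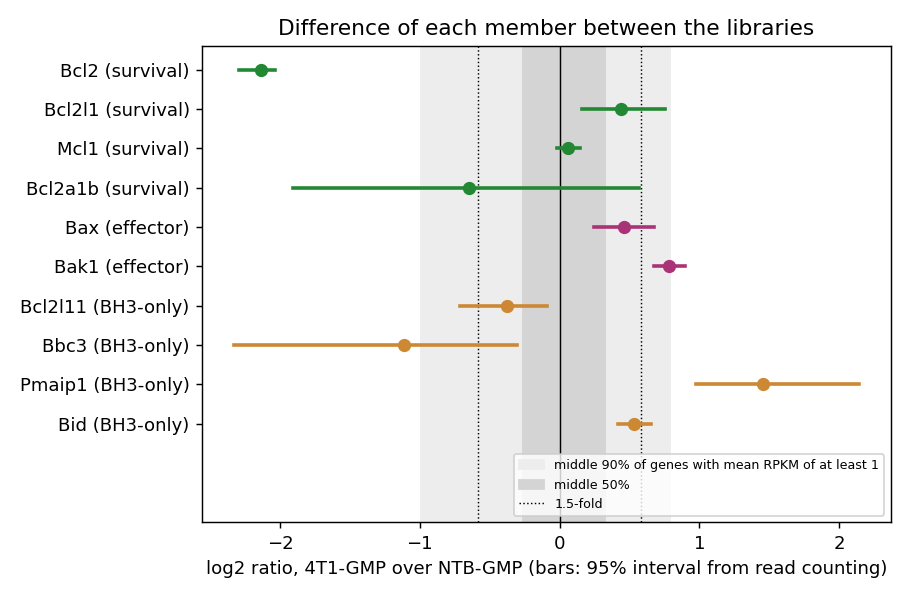
Log2 ratio of each member, 4T1-GMP over NTB-GMP, with the bar giving the 95% counting interval of the RPKM ratio and the color giving the role. The shaded bands hold the middle 50% and 90% of the 10378 genes tested. Bcl2 at -2.14 and Pmaip1 at 1.45 lay outside the wider band, Bbc3 at -1.11 lay just outside it with a wide interval, and Mcl1 at 0.06 lay near its center.

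Both effectors had more RPKM in 4T1-GMP. Bak1 (chr17:27019810-27029009, minus strand), whose protein sits in the outer mitochondrial membrane, had 39.0 RPKM in NTB-GMP from 795 reads against 67.1 RPKM in 4T1-GMP from 4034 reads. The log2 ratio was 0.78 (0.67 to 0.89), and 94.9% of the genes tested had a lower one. It stayed past 1.5-fold without Rn45s (0.62) and after quantile normalization (0.59), close to the log2 threshold of 0.58. Exons of Ggnbp1 overlap Bak1 on the other strand, and Ggnbp1 had 0.330 RPKM in NTB-GMP against 0.672 RPKM in 4T1-GMP. Whether the overlap affected the count of Bak1 was not tested.

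Bax (chr7:45461697-45466898, minus strand) encodes the effector that moves from the cytosol to mitochondria. Its level was 25.4 RPKM in NTB-GMP (225 reads) against 35.0 RPKM in 4T1-GMP (913 reads). The log2 ratio of 0.46 (0.25 to 0.68) was within 1.5-fold. The ratio of Bak1 to Bax was 1.53 in NTB-GMP and 1.92 in 4T1-GMP, a log2 change of 0.32 (0.09 to 0.56), so Bak1 led in both libraries and by more in 4T1-GMP.

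Among the BH3-only members described, which leave out Bad, Bid carried nearly all of the transcript. Bid (chr6:120891930-120916853, minus strand), which caspase 8 cleaves to link death receptors to mitochondria, had 36.5 RPKM in NTB-GMP (703 reads) against 53.0 RPKM in 4T1-GMP (3007 reads). The log2 ratio of 0.54 (0.42 to 0.66) was just under the 1.5-fold threshold, and 0.37 without Rn45s. Bcl2l13, which overlaps exons of Bid on the other strand, had a log2 ratio of -0.11.

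Pmaip1 (chr18:66458533-66465565, plus strand) encodes NOXA, which binds chiefly MCL1 and A1. It had 29 reads in NTB-GMP and 248 in 4T1-GMP, or 1.07 and 3.11 RPKM. The log2 ratio was 1.45 (0.98 to 2.14), above that of 98.3% of the genes tested, and the RPKM ratio of 2.90 had an interval of 1.97 to 4.42. Pmaip1 was nevertheless scarce beside its partner, since Mcl1 had 44.0 times its RPKM in NTB-GMP and 15.8 times in 4T1-GMP.

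Bcl2l11 and Bbc3 had lower values in 4T1-GMP. Bcl2l11 (chr2:128126038-128162547, plus strand), the gene for BIM, which acts when growth factors are withdrawn, had 1.73 RPKM in NTB-GMP (126 reads) against 1.31 RPKM in 4T1-GMP (281 reads). Its log2 ratio of -0.38 (-0.71 to -0.09) was within 1.5-fold. Bbc3 (chr7:16308393-16318205, plus strand), the gene for PUMA and a p53 target, had 0.845 RPKM from 17 reads and 0.337 RPKM from 20 reads. Its log2 ratio was -1.11 (-2.33 to -0.30), beyond counting error, but it rested on these few reads and passed the fold with a pseudocount of 0.1 and not of 1. Thus the 3 scarce BH3-only genes did not move one way: Pmaip1 was higher, Bbc3 was lower and Bcl2l11 stayed within the fold.

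The make-up of the 10 members shifted from survival to effector transcripts. The sums leave out the survival gene Bcl2l2 (7.41 RPKM in NTB-GMP and 7.35 in 4T1-GMP) and the BH3-only gene Bad (12.5 and 11.8 RPKM). The survival members summed to 67.8 RPKM in NTB-GMP against 58.5 RPKM in 4T1-GMP, which was 39.3% and 26.8% of the RPKM of all 10. The effectors summed to 64.4 and 102 RPKM, or 37.4% and 46.8%. The BH3-only members summed to 40.2 and 57.7 RPKM, or 23.3% and 26.4%. Without Bid, the BH3-only sums were 3.65 and 4.76 RPKM.

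The ratio of summed survival RPKM to summed effector and BH3-only RPKM was 0.648 in NTB-GMP and 0.366 in 4T1-GMP. The log2 change was -0.82 (-0.93 to -0.72), a value that the library size cannot move because each ratio is taken within a library. It was -0.53 with Bcl2 left out and -1.77 with Mcl1 left out, so the abundant Mcl1 held the ratio up in both libraries. Single pairs of a survival and a death gene did not all move this way. Of the 24 pairs, 13 were lower in 4T1-GMP by at least 1.5-fold, 7 stayed within it and 4 were higher. The pairs reuse the same 10 levels of each library and are not independent, and no share over other gene pairs was computed. Pairs with Bcl2a1b (10 and 18 reads) or Bbc3 (17 and 20 reads) rest on few reads. All 6 pairs with Bcl2 were lower, and the 4 higher pairs had Bbc3 or Bcl2l11 as the death gene. Bcl2 to Bak1 went from 0.402 to 0.0520, Bcl2 to Bax from 0.616 to 0.0998, Bcl2 to Bcl2l11 from 9.04 to 2.66, and Mcl1 to Bak1 from 1.21 to 0.735. In the other direction, Mcl1 to Bbc3 went from 55.9 to 146 and Bcl2l1 to Bcl2l11 from 2.07 to 3.75, while Bcl2l1 to Bax was 0.141 in both libraries. The sum adds transcripts of proteins that differ in stability and binding, and it is a description of RNA and not of a threshold for death.

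**Figure D3:**
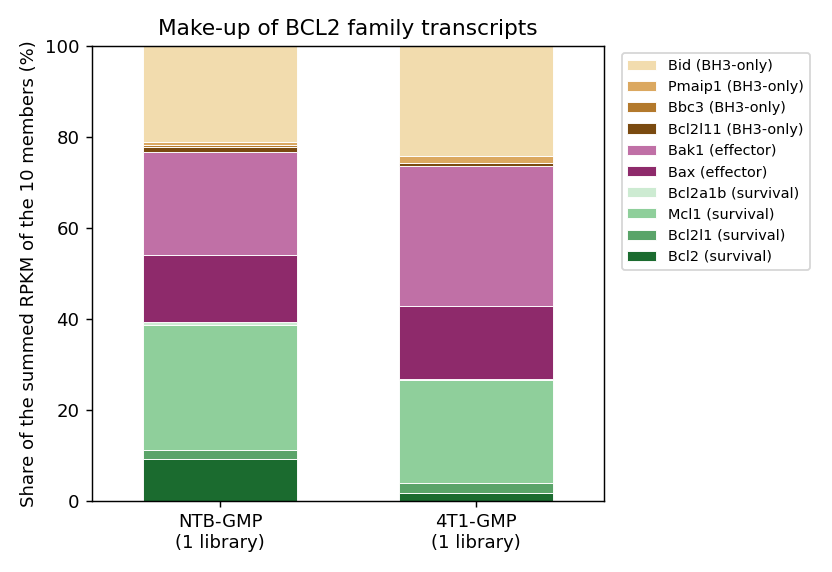
Share of each member in the summed RPKM of the 10 members, in percent, as 1 stacked bar per library. The share of Bcl2 was 9.09% in NTB-GMP and 1.60% in 4T1-GMP, that of Mcl1 27.4% and 22.6%, that of Bak1 22.6% and 30.7%, and that of Bid 21.2% and 24.3%.

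The other BCL2 family genes that averaged 1 RPKM or more stayed within the fold. Of 16 further genes, 6 reached that level, and 0 of the 6 passed 1.5-fold in either direction. Their median log2 ratio was -0.05. The survival gene Bcl2l2 (BCL-W) had 7.41 RPKM in NTB-GMP against 7.35 RPKM in 4T1-GMP, and the BH3-only gene Bad had 12.5 and 11.8 RPKM. The mitophagy receptors Bnip3 and Bnip3l had log2 ratios of -0.01 and 0.08, and Bcl2l12 and Bcl2l13 had -0.10 and -0.11. Bcl2l10, Bcl2a1c, Bik and Hrk were listed at 0 in both libraries, and Bcl2a1a, Bcl2a1d, Bok, Bmf, Bcl2l14 and Bcl2l15 had a mean below 1 RPKM. Of these scarce genes, Bcl2l15 differed beyond counting error, with 1 read in NTB-GMP and 28 in 4T1-GMP (log2 ratio 1.89, interval 0.65 to 8.60), and it is named after its values were seen.

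Downstream of the mitochondrion, the 12 apoptosome and caspase genes described had 3 higher, 1 lower and a median log2 ratio of 0.27. The counts of this and the later apoptosis lists are under the deposited scaling, where 9.8% of all tested genes were higher and 11.6% were lower. Endog (1.27), a mitochondrial nuclease, and Htra2 (0.97), a mitochondrial protease that blocks IAP proteins, were the largest rises. Cycs, the gene for cytochrome c, was the third, with 60.2 RPKM in NTB-GMP against 97.5 RPKM in 4T1-GMP (log2 ratio 0.69). Cycs would no longer pass the fold with the Rn45s shift of -0.16. Casp6 (-0.70), a caspase gene, was lower, with 5.06 RPKM in NTB-GMP against 3.07 RPKM in 4T1-GMP. The apoptosome genes Apaf1 (0.37) and Casp9 (0.02) stayed within the fold.

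The list of IAP genes had 7 members tested, with 1 higher, 1 lower and a median of 0.05. The higher and the lower gene were Naip2 (1.03) and Naip5 (-0.64), which are paralogs. Their sequence identity was not measured here. A further paralog below the filter, Naip1, had 2 reads in NTB-GMP and 35 in 4T1-GMP (log2 ratio 1.22, interval 0.61 to 5.67), and it too was singled out after its values were seen. Xiap, the direct caspase inhibitor, had a log2 ratio of -0.09, and all tested genes of the list other than Naip2 and Naip5 stayed within the fold. Of 14 mitochondrial partners of the family, 1 was higher and 1 was lower, with a median of 0.22. Vdac2, a channel that holds BAK at the outer membrane, had 111 RPKM in NTB-GMP against 181 RPKM in 4T1-GMP (0.70). It lay above the log2 threshold of 0.58 by less than the Rn45s shift of 0.16. Itpr3, a calcium release channel of the endoplasmic reticulum that BCL2 proteins bind, had 3.69 and 1.31 RPKM (-1.43).

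The death receptor list had 11 genes tested, 0 higher and 2 lower, with a median of -0.00. Below the level filter, the death receptor gene Fas, singled out after its values were seen, had 4 reads in NTB-GMP and 57 in 4T1-GMP (log2 ratio 1.86, interval 0.84 to 4.20). The lower genes were Tnfsf10 (-0.71), the ligand TRAIL, and Mlkl (-0.66), the pore protein of necroptosis. The p53 list had 12 genes tested, 4 higher and 0 lower, with a median of 0.19, where 9.8% of all tested genes were higher. Of the 4, Aen (0.67) and Gadd45g (0.72) would no longer pass the fold with the Rn45s shift of -0.16. Gadd45g had 7 reads in NTB-GMP and 35 in 4T1-GMP, and its interval from -0.43 to 2.18 held 0. Gadd45b (1.22) and Sesn2 (0.96), both stress-induced, led the higher genes, while Trp53 itself (-0.01), Mdm2 (0.08) and Cdkn1a (0.10) were near 0. Pmaip1 and Bbc3, which p53 can induce, lay on opposite sides. Of 16 upstream regulators of the family, 14 were tested, of which 1 was higher and 2 were lower, with a median of -0.20. Pim1 (0.94), a cytokine-induced survival kinase, was higher. Foxo3 (-0.91), a transcription factor for Bcl2l11 and Bbc3, and Ddit3 (-0.60), a stress factor, were lower. Foxo1, below the level filter and also singled out after its values were seen, had 63 and 80 reads (log2 ratio -1.07, interval -1.71 to -0.72). Of the 9 tested genes that act on MCL1 protein turnover, 0 passed the fold under the deposited scaling, with a median of 0.07. Log2 ratios of 5 of the 9 were above 0. Fbxw7 (-0.53, interval -0.72 to -0.36) and Btrc (-0.45, -0.69 to -0.25), named after their values were seen, were lower beyond counting error. With the Rn45s shift of -0.16, both would pass the fold. Below the filter, Trib2 of that list had 40 reads in NTB-GMP and 1 in 4T1-GMP (interval of the log2 RPKM ratio -12.2 to -4.32), again a gene singled out after its values were seen.

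**Figure D4:**
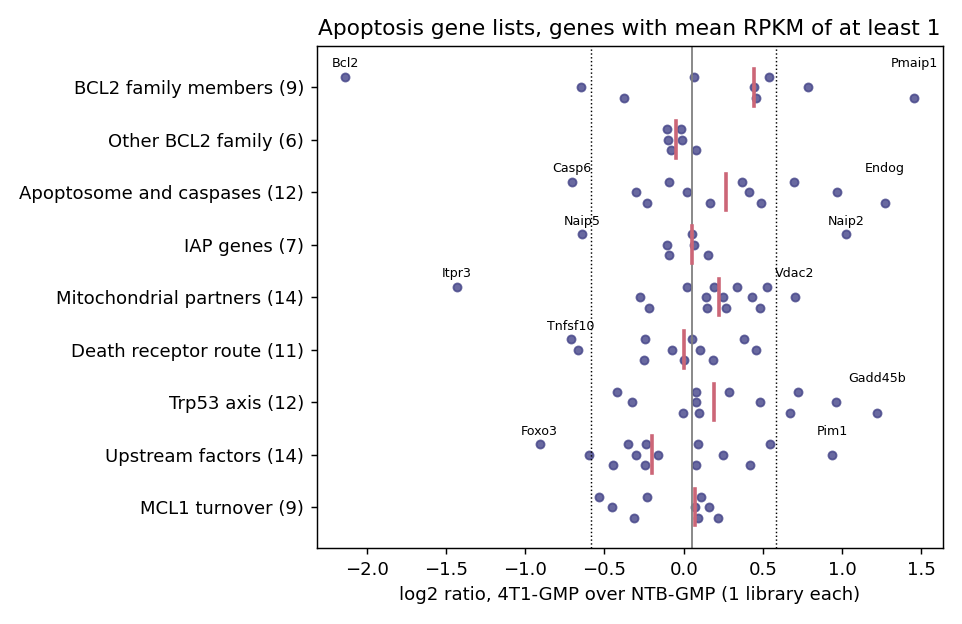
Log2 ratio, 4T1-GMP over NTB-GMP, of every gene averaging 1 RPKM or more in the BCL2 family and the apoptosis lists, with the number of such genes in parentheses. Points are genes, red ticks are list medians, the grey line is the median of all 10378 genes (0.05), dotted lines are 1.5-fold, and the extreme genes past the fold are named. The other BCL2 family genes lie between -0.11 and 0.08, whereas the members run from -2.14 to 1.45.

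The libraries also differed in lineage genes, as these values show. All 14 neutrophil markers were higher in 4T1-GMP, with a summed level of 532 RPKM in NTB-GMP against 4103 RPKM in 4T1-GMP. Of 10 primary granule and GMP markers, 5 were higher and 3 were lower (Kit, Fcgr3 and Cd34), and with sums of 10662 and 16379 RPKM they were abundant in both libraries, as the GMP label requires. Lower in 4T1-GMP were 8 of 9 tested monocyte and dendritic cell markers (summed 213 to 83.1 RPKM), 3 of 3 stem cell markers (35.1 to 10.2), 3 of 3 erythroid and megakaryocyte markers (22.3 to 6.13) and 5 of 6 basophil and mast cell markers (455 to 188). The stem cell marker Ly6a was at 0 in NTB-GMP, and Hba-a1, Hbb-bt and Cd209a were at 0 in both. Of the lymphoid markers, Cd3g was at 0 in both libraries, Cd3e in NTB-GMP, and Ms4a1 in 4T1-GMP, and the summed level of 206 and 350 RPKM was nearly all Nkg7. In a bulk library, fewer cells of a type and less RNA per cell cannot be told apart. Bcl2 was lower, as were the stem cell, erythroid, basophil and monocyte markers, and Bak1 and Pmaip1 were higher, as were the neutrophil markers. The part of these shifts in the family values was not tested.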

How the data were processed

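RNA-seq was available for GMPs of NTB and 4T1-bearing mice, 1 library each. The authors deposited RPKM per gene symbol. The authors' processing notes name CASAVA 1.8.2, cutadapt 1.2.1, TopHat2 2.0.13, Picard 1.97, HTSeq 0.6.1, edgeR 3.12.1 and build mm10. Annotation, strand and multi-mapping settings are not given in the sources used here. Ribosomal reads remained in the library sizes.

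Each RPKM was a whole read number divided by gene length and library size. Whole reads (tolerance 1e-05 of a read) were recovered for 14833 of 14833 genes above 0, taking the smallest length no shorter than the coding sequence in GENCODE M21, so reads of some genes are lower bounds and their intervals too wide. Intervals of single genes and of neighbouring levels are 95% Clopper-Pearson intervals on the share of reads. Those of the change in the survival ratio and in Bak1 to Bax are 95% normal approximations from the read counts. All cover counting error only. Log2 ratios used a pseudocount of 0.1 and calls a fold of 1.5, with a background of genes averaging 1 RPKM or more. With 1 library per group there was no test. The read recovery was tested on simulated data. Python 3.11.15, numpy 2.4.6 and scipy 1.17.1 were used. Gene positions are from GENCODE M21 and promoter windows from RefSeq (GRCm38, the same build as mm10).

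The members and gene lists were chosen with earlier results of these data known. All 10 members were named, then other family genes averaging 1 RPKM or more, then of each apoptosis list the 2 largest rises and 2 largest falls past the fold, together with Trp53, Cdkn1a, Mdm2, Cycs, Apaf1, Casp9 and Xiap, and markers by their sums and the genes at 0. Some list genes are not reported here and are left out of their lists' counts, medians and sums. Alternatives were other pseudocounts (1 and 0.01), sizes without Rn45s, median centring, quantile normalization, 4T1-GMP thinned 20 times to the NTB-GMP size, a fold of 2 and other make-ups of the survival sum.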

Additional observations from a re-analysis of the deposited data

How the results depend on the processing

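Over 6 alternatives (2 pseudocounts, sizes without Rn45s, median centring, quantile normalization and thinning), 52 of the 60 log2 ratios of members kept their direction and stayed within their counting interval, 6 kept their direction but left it, and 2 turned: that of Mcl1 was -0.10 without Rn45s and -0.13 after quantile normalization, against 0.06. The count of higher members was 1 (Pmaip1) instead of 2 at a fold of 2, and that of lower members was 1 (Bcl2) instead of 3 at a pseudocount of 1. The log2 change of the survival ratio stayed between -0.86 and -0.80 under rescaling, thinning, mean log2 values and summed Bcl2a1 copies. It was -1.77 without Mcl1 and, in alternatives chosen after seeing the data, -0.53 without Bcl2 and -0.86 without Bid. The share of tested genes past 1.5-fold was 8.54% higher and 6.97% lower among genes averaging 5 RPKM or more, and 11.9% and 17.0% over all genes above 0. Depth limits Bcl2a1b (10 and 18 reads) and Bbc3 (17 and 20 reads). No paired analysis was possible because NTB-GMP and 4T1-GMP are 1 library each.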
